A study of Mus musculus with 2 samples.

Results

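The Hox genes of the mouse were the subject here: the 39 protein-coding genes of the GENCODE M21 annotation whose symbol is Hoxa, Hoxb, Hoxc or Hoxd followed by a number only, out of 21755 protein-coding genes on chromosomes 1 to 19 and X. Members were chosen by symbol, with no measured value used. The Hoxa cluster held 11 of them, the Hoxb cluster 10, and the Hoxc and Hoxd clusters 9 each.

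The data were DNase-seq peaks, footprints and cut-rate significance from 2 libraries of adrenal gland tissue taken from female B6CASTF1/J mice, a hybrid strain, at 4 days of age. The enzyme DNase I reaches accessible DNA more easily than packed DNA, so a peak of cuts marks an accessible stretch, and a footprint is a short run of protected bases within such a stretch. Both libraries belonged to the same group and were named biological replicates 1 and 2. Both carried the same donor identifier and mention 3 females each, so whether the spread between them is biological cannot be told from the labels, and no test between groups was possible; alleles were not separated.

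Hox genes encode homeodomain transcription factors that give cells their position along the head-to-tail axis. In each cluster the genes lie in the order of the body levels at which they act, from low numbers (anterior) to high numbers (posterior), and Polycomb proteins keep the genes not in use compact, with CTCF sites marking borders between the active and silent portions. HOX proteins bind DNA together with TALE cofactors of the PBX, MEIS and PKNOX families, and such a complex acts at the fetal adrenal enhancer of Nr5a1, the gene of the steroidogenic regulator SF1.

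The libraries differed in depth of calling: the longer of the 2 deposited peak lists held 45983 peaks in replicate 1 and 87306 in replicate 2. Of these, 83.9% of the replicate 1 peaks overlapped a replicate 2 peak, and 44.9% of the replicate 2 peaks overlapped a replicate 1 peak. The deposited signal of a peak is the authors' own value on a scale of its library, and it ran higher in replicate 2, by a median of 2.05 times over genes open in both. Signals are therefore given for each library. Where peaks or genes are put in order, the mean over both libraries was used, in which replicate 2 weighs more, and the order within a library can differ. Of the marker genes of the adrenal cortex, Nr5a1 (1.77 and 5.07) and Cyp11a1 (1.25 and 3.54) had a peak at a start site in both libraries, Star in replicate 2 alone (2.73) and Mc2r in neither. Of the medulla markers, Chgb had such a peak in both (2.85 and 8.12), and Th and Dbh had none. Of the kidney markers, 3 of 5 genes also had peaks in both libraries, Lhx1 (1.19 and 3.03), Pax8 (0.469 and 0.642) and Lrp2 (0.699 and 0.730). The part of kidney cells in the results was not tested. Of all protein-coding genes, 61.3% had a start-site peak in both libraries. At the start site nearest to its own start codon, 0 of 4 cortex, 1 of 3 medulla and 3 of 5 kidney genes had 1 in both, against 52%. With the shorter peak list and any start site the counts were 0, 1 and 1, against 54.8%. Fewer cells with an open site and a less open site in each cell cannot be told apart in tissue.

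The sequences of the strongest peaks along the clusters are shown first, because the later results turn on them. Each line gives the 30 bases around the longest stretch that lay in footprints of both libraries, with that stretch in capitals, from the RefSeq copy of the GRCm38 (mm10) reference. The first 2 lines come from the strongest and the next strongest peak of the Hoxa cluster, the others from the Hoxb, Hoxc and Hoxd clusters.
Hoxa2 to Hoxa3 interval, chr6:52172719-52172748, plus strand: cgccccCGCGGTCACGTGACACTccgccgc
Hoxa5 start site, chr6:52204653-52204682, minus strand: tgcgcccAGTCTCCAGCGGGTGGcgctcga
Hoxb5 start site, chr11:96303240-96303269, plus strand: aatcgCCGGGAGGTGGCGCGCTCTGctcag
Hoxb9 to Hoxb13 interval, chr11:96261741-96261770, minus strand: gaccgACCTCTAGGCGGCGCCCTGGcgttg
Hoxc8 to Hoxc9 interval, chr15:102987590-102987619, plus strand: TGAACGCGAGGTGGCGCTGTTGCTCAATGt
Hoxc10 start site, chr15:102966567-102966596, plus strand: ggcagctGCTAGGTGGCGCTGTTactccac
Hoxd4 to Hoxd8 interval, chr2:74715914-74715943, plus strand: gCTTTGTCCAGGAGGAGGCGCTGTAGGACa
Hoxd8 start site, chr2:74704867-74704896, minus strand: agataaCCGCGCGGAGGGATCCCGCcggcg
The protected stretches of the Hoxc8 to Hoxc9 peak and of the Hoxc10 peak shared the run AGGTGGCGCTGTT of 13 bases, which occurred in 57 of the 39234 peaks present in both libraries (0.145%). The Hoxb5 line had 10 bases, GAGGTGGCGC, in common with the Hoxc8 to Hoxc9 line (in 0.349% of the peaks present in both). The Hoxa5 line had 9 bases in common with each Hoxc line, AGCGCCACC when written on the other strand (1.88%). The Hoxd4 to Hoxd8 line had 8 bases, GGCGCTGT, in common with each Hoxc line (2.83%). Every pair of lines was compared, and the runs named are among the longest found. Other pairs shared as few as 4 bases, such as CGCG (47.3%). Long runs picked in this way are rare in any set of peaks, so these shares are not a test.

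A gene was called open in a library when a peak of the longer list touched the 1 kb on either side of any of its annotated transcription start sites (TSSs). By that rule 17 of the 39 Hox genes (43.6%) were open in both libraries, against 61.3% of all protein-coding genes. Replicate 1 opened 17 Hox genes against 62.2% of all genes, and replicate 2 opened 29 (74.4%) against 66.3%. The Hox share was thus below the background in replicate 1 and above it in replicate 2. No Hox gene was open in replicate 1 alone, where the background was 0.869%, and 12 of 39 were open in replicate 2 alone, where it was 5%. The other 10 had no peak in either library.

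Many Hox start sites lie in CpG-rich DNA, which is open at most genes of this tissue. Using a CpG observed-to-expected ratio of at least 0.6 and a GC content of at least 55% in the 500 bp on either side of the main start site, 22 Hox genes were CpG-rich, a grouping added after the data were seen. Of these, 9 (40.9%) were open in both libraries, against 94% of the 7781 CpG-rich genes. In replicate 2 the count was 15 of 22 (68.2%) against 96.6%. Hoxa13, with a GC content of 76.3% and a ratio of 0.945, and Hoxd13, with 72.4% and 0.905, were among the CpG-rich genes without a peak in either library. Both encode factors of the posterior end, known for their part in digits and the genital tubercle.

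Where open, Hox start sites had lower signals than the typical open gene. The median signal of the strongest start-site peak over the 17 genes open in both was 1.65 in replicate 1 and 3.69 in replicate 2, against 2.11 and 4.33 over all genes open in both. Over every gene open in replicate 2 it was 2.24 for the Hox genes and 4.03 for all genes. The strongest start-site peak of any member, at Hoxa5, lay at the 62.7th percentile of open genes in replicate 1 and the 73.9th in replicate 2.

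**Figure D1:**
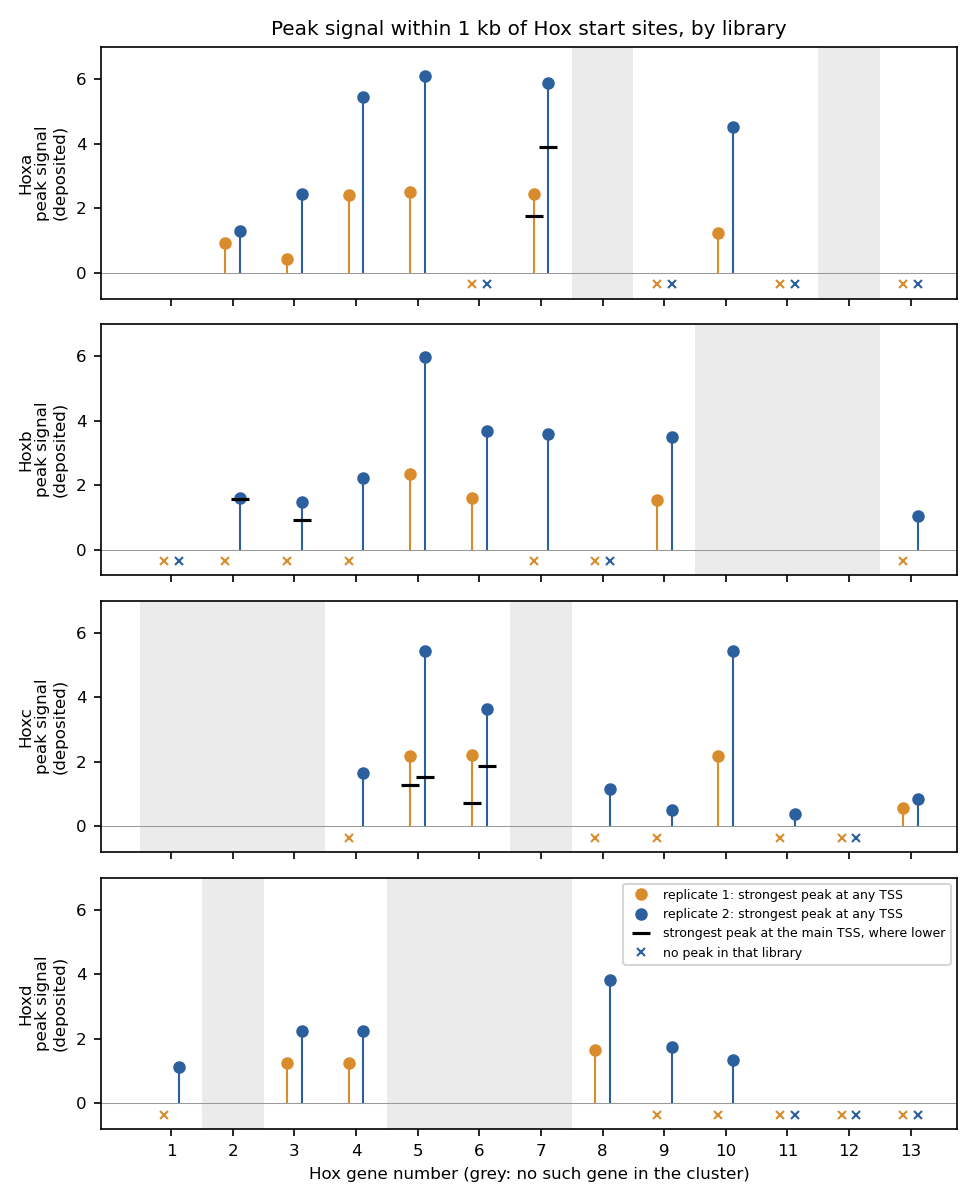
Deposited signal (y axis, no unit beyond the authors' scale) of the strongest peak within 1 kb of any start site of each Hox gene, against the gene's number, with 1 panel for each cluster. Circles with stems are the values in replicate 1 (orange) and replicate 2 (blue), crosses below the zero line mark a gene without a peak in that library, black bars the strongest peak at the main start site where it is lower, and grey bands numbers a cluster lacks. Both libraries have circles at the same genes of the Hoxa panel, which starts at Hoxa2, and in the other panels replicate 2 has circles at 12 genes that have a cross in replicate 1.

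In the Hoxa cluster (chr6:52153317-52265802, 112.5 kb, all genes on the minus strand) both libraries gave the same open genes, among them Hoxa2 to Hoxa5, Hoxa7 and Hoxa10. Hoxa5, a gene of lung and cervico-thoracic patterning, reached 2.51 in replicate 1 and 6.11 in replicate 2, in a peak centred 53 bp upstream of its start site in replicate 2. Hoxa7 had 2.46 and 5.88, and Hoxa4 had 2.41 and 5.46. Hoxa2, which patterns the hyoid arch, had 0.921 and 1.28. The signal was thus higher at Hoxa4, Hoxa5 and Hoxa7 than at Hoxa2 in each library. Hoxa6, Hoxa9, Hoxa11 and Hoxa13 had no peak in either library. Hoxa6 and Hoxa9 lie between open genes, so the open stretch was broken after Hoxa5 and again after Hoxa7. The highest-numbered open gene was Hoxa10. The stretch up to Hoxa5 rested on the call of Hoxa3, described next.

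Several of these calls came from start sites far from the main one, which is the start site nearest to its own start codon. Hoxa3, a gene of thymus and parathyroid development, had no peak at its main start site. It was open through start sites at least 29.3 kb upstream, near Hoxa6 and Hoxa7, with 0.418 in replicate 1 and 2.45 in replicate 2 in peaks that did not overlap each other. Hoxa10, a gene of uterine and lumbar identity, was open only through start sites upstream, in a peak 5611 bp from the main one, with 1.24 and 4.50. The strongest Hoxa7 peak lay 4368 bp upstream of its main start site, where the signal was 1.76 and 3.91. At main start sites alone 13 Hox genes were open in both libraries (33.3%), against 52% of all genes. The 4 genes lost were Hoxa3, Hoxa10, Hoxd3 and Hoxd4, and openness in the Hoxa cluster then ended at Hoxa7. The first run of open Hoxa genes then ended at Hoxa2 in place of Hoxa5. It also ended at Hoxa2 with peaks under 0.5 left out, or when start-site peaks of both libraries had to overlap by 50%.

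In the Hoxb cluster (chr11:96189316-96370752, 181.4 kb, plus strand) only Hoxb5, Hoxb6 and Hoxb9 of 10 genes were open in both libraries. Hoxb5 had 2.35 in replicate 1 and 5.98 in replicate 2, Hoxb6 had 1.60 and 3.69, and Hoxb9, a gene of thoracic identity, had 1.53 and 3.50. Replicate 2 alone added Hoxb2 (1.60), Hoxb3 (1.49), Hoxb4 (2.23), Hoxb7 (3.57) and Hoxb13 (1.06). Hoxb7 is the only one of these 5 with a signal in replicate 2 near that of Hoxb6 and Hoxb9. Hoxb1, which marks the fourth rhombomere of the hindbrain, and Hoxb8 had no peak in either library. The run of open genes in both was thus Hoxb5 to Hoxb6 and the highest Hoxb9, while in replicate 2 the run went from Hoxb2 to Hoxb7 and the highest was Hoxb13.

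The libraries differed over the whole anterior end of the Hoxb cluster. Between the main start sites of Hoxb5 and Hoxb1, 62.2 kb apart, replicate 1 had 0 peaks and replicate 2 had 28, of which 16 were also touched by the stricter list. These 28 had a median signal of 1.06 and a highest of 2.30, against 0.985 for all replicate 2 peaks, and covered 8.69% of the stretch.

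In the Hoxc cluster (chr15:102916103-103039395, 123.3 kb, plus strand) Hoxc5, Hoxc6, Hoxc10 and Hoxc13 of 9 genes were open in both. Hoxc10, a gene of lumbar motor neurons and hindlimb level, had 2.18 in replicate 1 and 5.45 in replicate 2. Hoxc5 took the same peak, because an annotated start site of Hoxc5 lies 46.4 kb upstream of its main one, and at the main one it had 1.30 and 1.55. Hoxc6 had 2.21 and 3.63 at an upstream start site. At its main one it had 0.742 and 1.87, in peaks that did not overlap each other. Hoxc13, a gene of hair and nail, had 0.580 and 0.853, which puts it at the 4.47th and 7.29th percentile of open genes. Replicate 2 alone added Hoxc4 (1.65), Hoxc8 (1.15), Hoxc9 (0.501) and Hoxc11 (0.387), and Hoxc12 had no peak in either library. The run of open genes was Hoxc5 to Hoxc6 in both libraries and Hoxc4 to Hoxc11 in replicate 2, and the highest was Hoxc13.

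In the Hoxd cluster (chr2:74663310-74767980, 104.7 kb, plus strand) Hoxd3, Hoxd4 and Hoxd8 of 9 genes were open in both. Hoxd8 had 1.65 in replicate 1 and 3.83 in replicate 2, and was the only one of them open at its main start site. Hoxd3 and Hoxd4 shared the same upstream start region, 33.7 kb and 15.1 kb from their main start sites, with 1.25 and 2.24, and their strongest peaks in the libraries did not overlap. Replicate 2 alone added Hoxd1 (1.12), Hoxd9 (1.75) and Hoxd10 (1.36). Hoxd11, Hoxd12 and Hoxd13, the genes of forearm and digit patterning, had no peak in either library. Openness ended at Hoxd8 in both libraries and at Hoxd10 in replicate 2.

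Sorted by paralogue group, 6 of the 12 genes of groups 1 to 4 were open in both libraries, against 61.3% of all protein-coding genes. Of groups 5 to 9 it was 8 of 15, and of groups 10 to 13 it was 3 of 12. In replicate 2 the counts were 11, 12 and 6, against 66.3%. At main start sites alone the counts in both libraries were 3, 8 and 2, against 52%. All 3 genes of group 5 (Hoxa5, Hoxb5 and Hoxc5) were open in both. None of the 5 genes of groups 11 and 12 was, and Hoxc11 in replicate 2 was the only 1 open in a single library.

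The count of open genes depended on the peak list used, and less on faint peaks. With peaks under 0.5 left out, 16 genes in place of 17 were open in both. Under the stricter peak list 11 Hox genes were open in both libraries, against 54.8% of all genes, among them Hoxa3, Hoxa4, Hoxa7, Hoxb5, Hoxc5, Hoxc6, Hoxc10, Hoxd3, Hoxd4 and Hoxd8. Hoxa5, the strongest member, dropped out because the stricter list of replicate 1 had no peak there. In the Hoxb cluster the stricter list of replicate 1 kept 2 of 10 peaks, and left out peaks as high as 2.66.

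Along the clusters, 35 replicate 2 peaks overlapped a replicate 1 peak: 15 in Hoxa, 9 in Hoxb, 6 in Hoxc and 5 in Hoxd. That was 75% of the replicate 2 peaks in the Hoxa cluster, 16.4% in Hoxb, 7.41% in Hoxc and 20.8% in Hoxd, against 44.9% of all peaks. Of the 35, 22 lay at a start site of a Hox gene and 13 between start sites of Hox genes, namely 4 in Hoxa, 6 in Hoxb, 2 in Hoxc and 1 in Hoxd. Some of the 13 lay within 1 kb of a start site of a non-coding gene, such as Gm53 and Hoxd3os1. By annotation, 12 overlapped a UTR, 6 a coding exon, and 15 no exon at all.

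**Figure D2:**
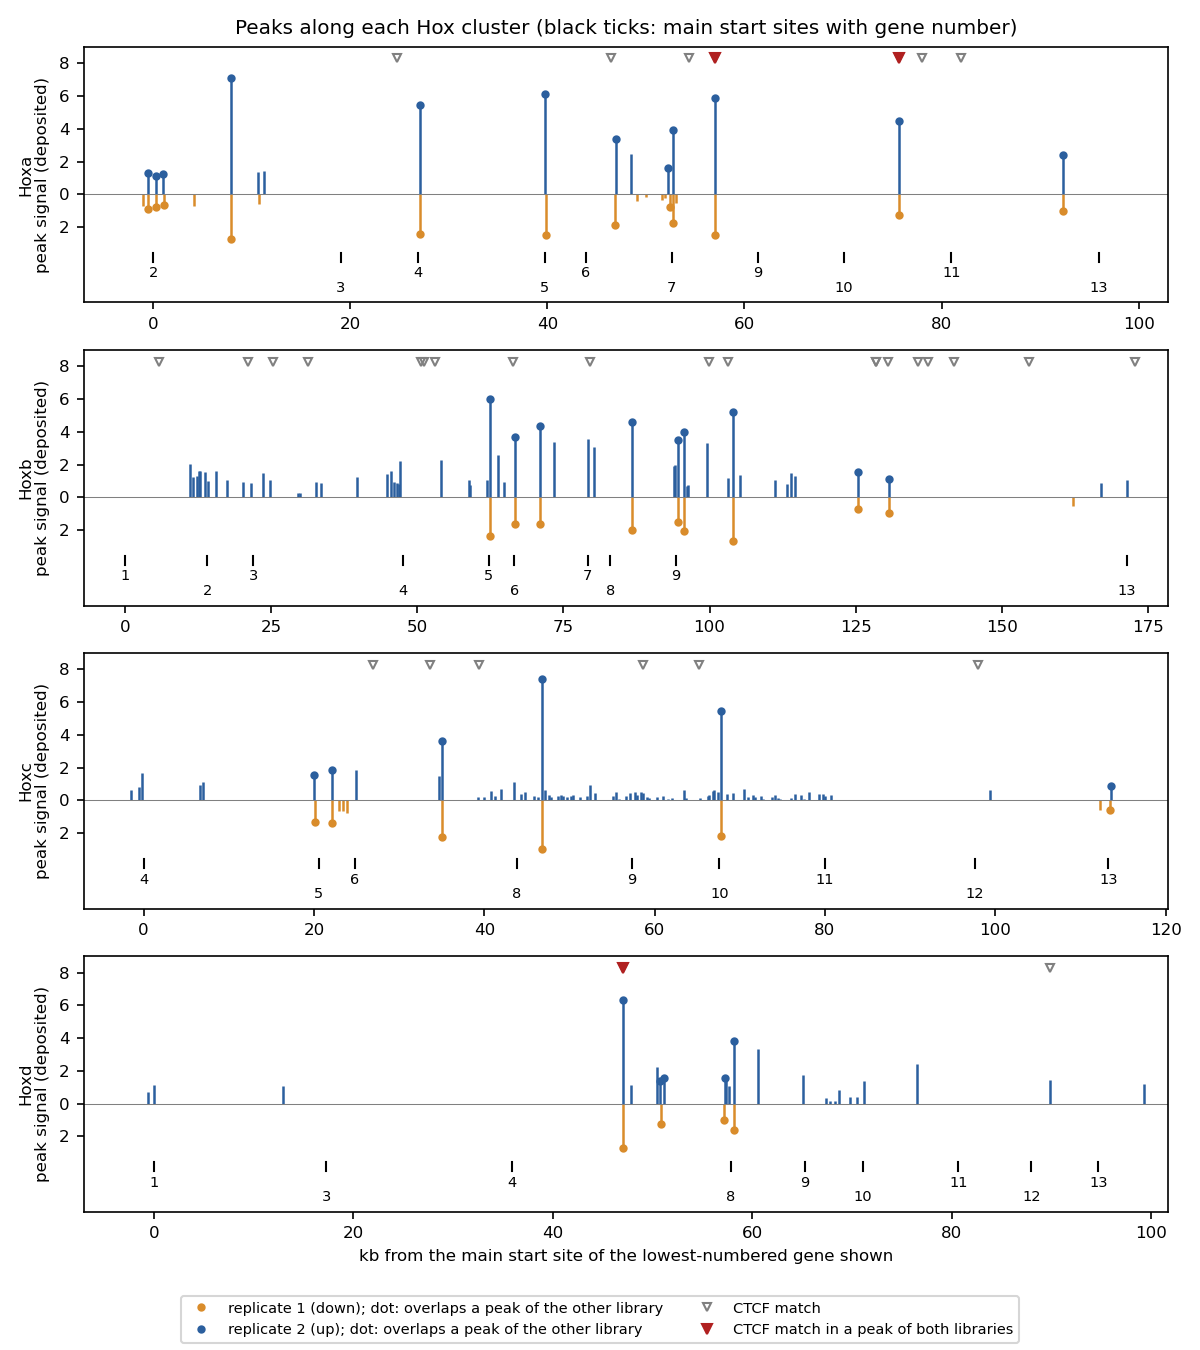
Peaks along each Hox cluster, in Hoxa from 2 kb before Hoxa2: distance in kb from the main start site of the lowest-numbered gene shown (x axis) and deposited signal (y axis), replicate 2 upward in blue and replicate 1 downward in orange. Dots mark peaks that overlap a peak of the other library, black ticks the main start sites with gene numbers, grey open triangles CTCF matches and red triangles those in a peak of both libraries. Most tall peaks have a dot, replicate 1 has no stem between Hoxb1 and Hoxb5, and replicate 2 has many short stems between Hoxc8 and Hoxc11.

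In the Hoxa, Hoxc and Hoxd clusters the strongest shared peak of either library lay between start sites of the Hox genes. The strongest of all was between Hoxc8 and Hoxc9, at chr15:102987521-102987700, with 2.96 in replicate 1 and 7.42 in replicate 2, the 97.3rd percentile of replicate 2 peaks. It falls in an intron of the long Hoxc5 transcript. In the Hoxa cluster it was the peak at chr6:52172641-52172820, with 2.75 and 7.11. That peak spans the start codon and the adjoining 5′ UTR of Hoxa3, downstream of the main Hoxa3 start site, and it also lies within 1 kb of a start site of the antisense gene Gm15050. In the Hoxd cluster it was the peak at chr2:74715861-74716040, with 2.73 and 6.33, in an exon of the antisense RNA gene Hoxd3os1. In the Hoxb cluster the order differed between the libraries. The peak at chr11:96261661-96261820, between Hoxb9 and Hoxb13 in an exon of the non-coding gene Gm53, had 2.66 and 5.22, and the peak at the Hoxb5 start site had 2.35 and 5.98. Each of these had at least 2 footprints in each library.

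The whole peaks between Hoxc8 and Hoxc9 and between Hoxd4 and Hoxd8 are given here on the plus strand, with the bases in footprints of both libraries in capitals, to show how the protected stretch sits within the open region.
Hoxc8 to Hoxc9, chr15:102987521-102987700: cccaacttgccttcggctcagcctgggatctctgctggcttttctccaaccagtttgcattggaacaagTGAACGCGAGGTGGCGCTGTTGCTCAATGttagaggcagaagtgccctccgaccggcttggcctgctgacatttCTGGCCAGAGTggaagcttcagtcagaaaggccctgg
Hoxd4 to Hoxd8, chr2:74715861-74716040: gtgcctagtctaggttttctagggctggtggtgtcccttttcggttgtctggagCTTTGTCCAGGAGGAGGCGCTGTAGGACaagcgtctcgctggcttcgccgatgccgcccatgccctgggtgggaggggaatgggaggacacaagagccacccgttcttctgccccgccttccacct
In the Hoxc8 to Hoxc9 peak the common stretch near the middle had 29 bases, and in the Hoxd4 to Hoxd8 peak it had 28.

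A CTCF match was defined as the letters CCA, any 2 bases, AG, any 2 bases and GGC, on either strand. The clusters held 34 such matches, and 3 of them lay in a peak of both libraries, against 4.03% of the 140718 matches on chromosomes 1 to 19 and X. There were 7 matches in the Hoxa cluster with 2 in such a peak, 19 in Hoxb with 0, 6 in Hoxc with 0, and 2 in Hoxd with 1. The 3 are shown with the match in capitals and in its own orientation.
Hoxa7, chr6:52221800-52221829, minus strand: aagaaaattCCAGGAGATGGCagtgtggct
Hoxa10, chr6:52240532-52240561, minus strand: tcgcagccgCCACGAGATGGCgcactcccg
Hoxd4 to Hoxd8, chr2:74715912-74715941, plus strand: gagctttgtCCAGGAGGAGGCgctgtagga
All 3 had a footprint over the match in both libraries, which held for 81.1% of such matches over the genome. The first lay 40 bp from an upstream start site of Hoxa7 and the second 249 bp from one of Hoxa10, so the strongest peaks of these genes were the peaks that hold the matches. Without start-site peaks that hold a match, openness in the Hoxa cluster ended at Hoxa7, since Hoxa10 had no other peak. The Hoxd match lay 3997 bp from the nearest start site of a Hox gene, an upstream one of Hoxd4. Of the remaining matches, replicate 2 alone had a peak over 1 in Hoxb (1.2), 3 in Hoxc (0.167 to 0.440) and 1 between Hoxd12 and Hoxd13 (1.42), so that in this library 8 of the 34 lay in a peak, against 6.75% of all matches. A narrower form of the CTCF consensus matched once in the clusters, between Hoxb9 and Hoxb13, outside any peak, while 27.7% of its matches over the genome lay in a peak of both libraries.

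Other strings, chosen after the sequences had been read, found further sites in the strong peaks. The wider string CC, any 3 bases, AG, any 2 bases and GGC was in 6 of the 35 shared cluster peaks (17.1%), against 24.3% of all shared peaks. It added the peak at Hoxb5, the one between Hoxb8 and Hoxb9 (1.98 and 4.64) and the one between Hoxb9 and Hoxb13 at 2.66 and 5.22. A footprint lay over the string in both libraries at all 6. Another string, CC, any 4 bases, G, any 2 bases, GGC, any base and G, was in 1 of the 35, at Hoxa7, against 21.4%. The letters AG, any 2 bases and GGCGCT, the later part of the known CTCF consensus, were in 4 (11.4%), against 5.87%, namely at Hoxc10, between Hoxc8 and Hoxc9, at the upstream Hoxc6 start site and between Hoxd4 and Hoxd8. At the Hoxc6 site no footprint lay over it. Since this string was chosen after these peaks had been read, its share above the background cannot be weighed. Any of the 4 strings, the first CTCF form included, was in 9 of the 35 (25.7%), against 36.2% of all shared peaks. The 3 wider Hoxb matches are shown with the string in capitals.
Hoxb5, chr11:96303236-96303265, plus strand: cgtcaatcgCCGGGAGGTGGCgcgctctgc
Hoxb8 to Hoxb9, chr11:96278939-96278968, plus strand: gcacagtggCCGCTAGATGGCatccttgct
Hoxb9 to Hoxb13, chr11:96261744-96261773, minus strand: cgcgaccgaCCTCTAGGCGGCgccctggcg
The strings of the 2 Hoxb intervals thus faced opposite ways along the chromosome. A match describes letters only, and the binding of CTCF was not measured.

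The strongest Hoxa peak, between Hoxa2 and Hoxa3, held none of these strings. Its common footprint covers the hexamer CACGTG, an E-box, which occurred in 4 of the 35 cluster peaks and 6.11% of all shared peaks. The Hoxa5 peak held no match to any motif searched.

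Long footprints occurred at a similar share in cluster peaks and elsewhere. A footprint of at least 20 bp in both libraries occurred in 7 of the 35 shared peaks, against 20.1% of all shared peaks. The longest in both were 31 bp and 31 bp between Hoxc8 and Hoxc9, 28 bp and 30 bp between Hoxd4 and Hoxd8, and 27 bp and 28 bp in a weak peak between Hoxb9 and Hoxb13 (0.716 and 1.55).

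**Figure D3:**
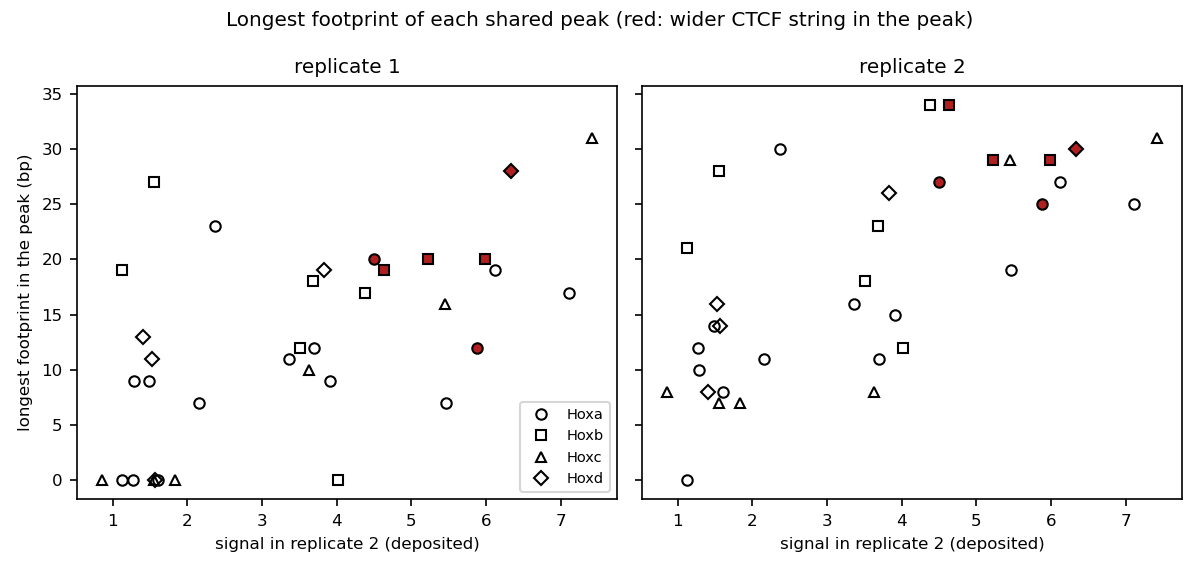
Length in bp of the longest footprint in each of the 35 shared peaks (y axis) against the deposited signal of the peak in replicate 2 (x axis), with footprints of replicate 1 in the left panel and of replicate 2 in the right. Symbols give the cluster, and red marks the 6 peaks that hold the wider CTCF string, all of which have a replicate 2 signal of at least 4.50.

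Each of 3 motifs of adrenal and Hox regulators was found in a single shared cluster peak, a count too small to set against the background. The SF1 motif CAAGGTCA, which NR5A1 binds, was found in 1 of the 35 shared peaks, at 2 places, against 1.38% of all shared peaks. That peak, chr6:52257081-52257220, lies between Hoxa11 and Hoxa13 in the only exon of 9530018H14Rik, had 1.02 in replicate 1 and 2.38 in replicate 2, and was the last shared peak toward the posterior end of the Hoxa cluster, 3.65 kb short of the Hoxa13 start site. Both places are shown with the motif in capitals.
SF1 motif, chr6:52257172-52257201, plus strand: ctgtcaaaagtCAAGGTCAcaaattgtctt
SF1 motif, chr6:52257198-52257227, plus strand: tcttttttcgtCAAGGTCAaggtttaaggc
Both places lay within the replicate 2 peak alone, because the replicate 1 peak ended before them, at 52257159. In replicate 2 a footprint of 8 bp lay over the first place and none over the second. In replicate 1, without a peak there, none lay over either. The longest footprint of the peak was 23 bp in replicate 1 and 30 bp in replicate 2, around chr6:52257117-52257146, outside both places. Its bases common to both libraries hold GAGGTGGCGC, the run that the Hoxb5 and the Hoxc8 to Hoxc9 lines had in common. The PBX-HOX motif TGATTNAT was in the Hoxb9 peak alone (background 1.14%), and the direct repeat of NGNTCA with 5 bases between the copies, a form of the retinoic acid response element, in the Hoxb6 peak alone (background 0.456%). Both matches lay in the replicate 2 peak but outside the replicate 1 peak that overlaps it. Neither had a footprint over it in either library.

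Coverage differed between clusters and between libraries. Peaks covered 3.34% of the Hoxa cluster in replicate 1 and 3.25% in replicate 2, with 24 and 20 peaks. The Hoxb cluster had 0.683% and 5.76% (10 and 55 peaks), the Hoxc cluster 1.10% and 12.8% (10 and 81), and the Hoxd cluster 1.12% and 4.43% (4 and 24). Over chromosomes 1 to 19 and X the shares were 0.361% and 0.568%. All 4 clusters were therefore denser than the genome in both libraries, and the Hoxa cluster alone had similar coverage in each.

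The flanks held peaks at about the density of the genome. In the 100 kb beyond each cluster end the counts were 0 to 4 in replicate 1 and 0 to 9 in replicate 2. The means over the 8 flanks were 2.25 and 3.88, against 1.75 and 3.32 for each 100 kb of the genome, and the flank beyond Hoxc13 had 0 in both. The nearest genes outside were open in both libraries at Skap2, Ttll6, Calcoco1, Smug1 and Mtx2, and not at Skap1, nor at the homeobox genes Evx1 and Evx2 beside Hoxa13 and Hoxd13.

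Some intervals inside the clusters were closed in both libraries: Hoxa3 to Hoxa4, Hoxa9 to Hoxa10, Hoxd3 to Hoxd4 and Hoxd11 to Hoxd12. The longest stretch without a shared peak, counted between the main start sites of the end genes, was 19 kb in Hoxa, 62.4 kb in Hoxb, 45.4 kb in Hoxc and 46.9 kb in Hoxd. In Hoxb and Hoxd it took in the main start sites of the anterior genes, Hoxb1 to Hoxb5 and Hoxd1 to Hoxd4. In Hoxa it took in those of Hoxa3 and Hoxa4, and in Hoxc those of Hoxc11 to Hoxc13. The main start sites of Hoxa4, Hoxb5 and Hoxc13 lay at its edge, within 1 kb of a shared peak.

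**Figure D4:**
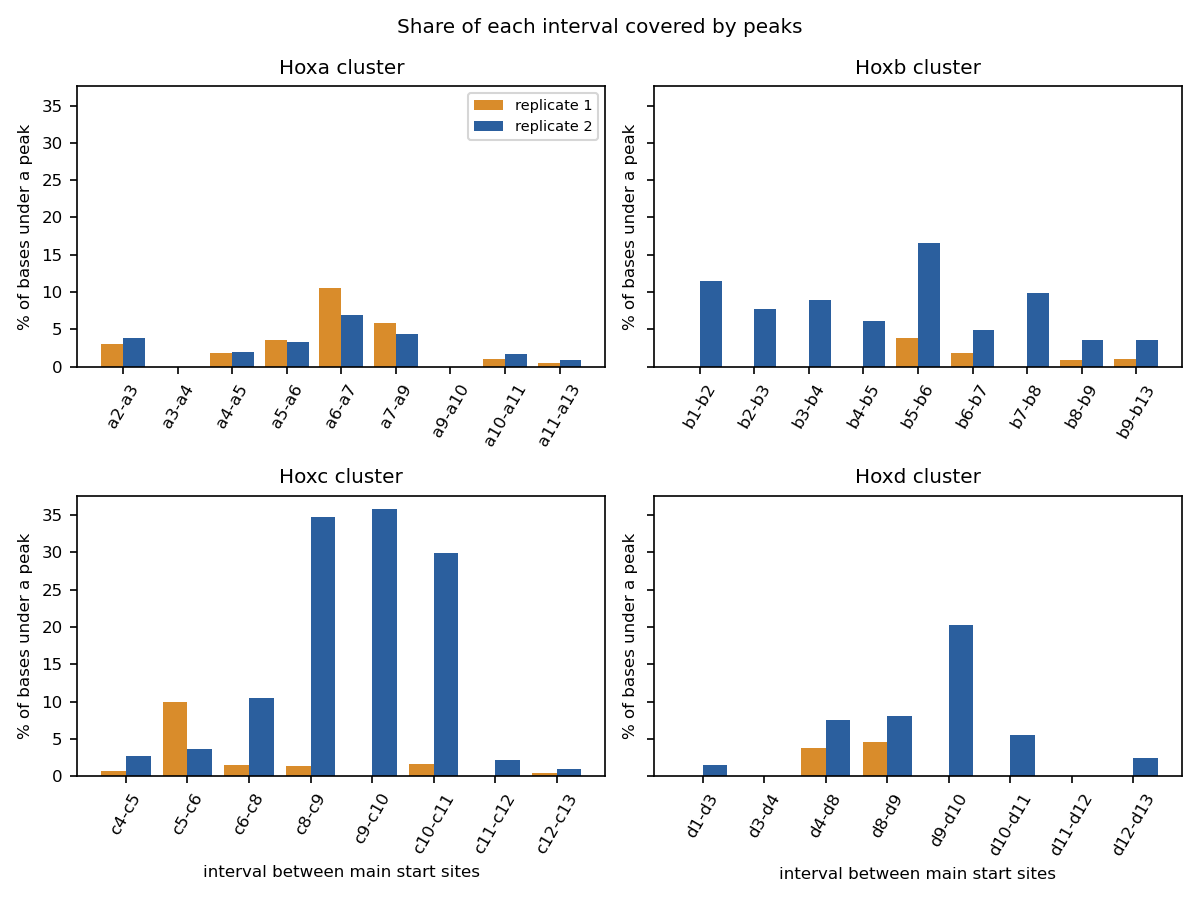
Percent of bases under a peak (y axis, from 0) in each interval between neighbouring main start sites (x axis; Hoxa from Hoxa2), for replicate 1 (orange) and replicate 2 (blue), with 1 panel for each cluster. In the Hoxa panel the bars of both libraries are of similar height, and the 3 intervals from Hoxc8 to Hoxc11 reach 29.9% to 35.8% in replicate 2 but at most 1.62% in replicate 1.

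The Hoxc cluster held an unusual run of faint peaks in replicate 2. Between the main start sites of Hoxc11 and Hoxc8 (chr15:102954427-102990607, 36.2 kb) replicate 1 had 2 peaks and replicate 2 had 62, of which 49 had a signal under 0.5. The median of the 62 was 0.304, and 2 of them reached 1: the Hoxc10 peak and the peak between Hoxc8 and Hoxc9, the same 2 that replicate 1 had. Peaks covered 33.4% of the stretch in replicate 2 and 1.05% in replicate 1, and positions with a cut rate at an adjusted p-value under 0.05 covered 58.7% and 1.41%. In replicate 2 these 2 strong peaks thus stood among faint ones. The stricter list of replicate 2, with 50373 peaks against 87306 in the longer list, touched 54 of the 62, down to a signal of 0.158. It is therefore not a higher cut on signal. In the whole Hoxc cluster 53 of 81 replicate 2 peaks had a signal under 0.5, against 22.6% of all replicate 2 peaks, and footprints numbered 3.68 for each kb of peak, against 8.88 over the genome.

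Such density was rare. Bins of 10 kb with at least 10 peaks made up 0.188% of the genome in replicate 2 (495 bins) and 0.0152% in replicate 1 (40 bins). The Hoxc cluster held 4 of the 495 and no other Hox cluster any, and none of the 40 lay in a Hox cluster. Of the 495 bins, 414 had a median signal under 0.5. A shorter run of the same kind lay between Hoxd10 and Hoxd9, with 6 peaks in replicate 2, 5 of them under 0.5, covering 20.3% of 5.80 kb, and 0 in replicate 1. The calls of Hoxc9 and Hoxc11 as open rested on peaks of the Hoxc run. With peaks under 0.5 left out, Hoxc11 was no longer open in replicate 2, and Hoxa3 no longer in replicate 1. In a count added after the data were seen, only the 45983 strongest replicate 2 peaks were kept, as many as replicate 1 had. The lowest signal kept was 0.932, so the faint peaks of both runs fell below the cut by the way they were described. Of the Hoxc run 2 of the 62 peaks were left and of the Hoxd run 0 of the 6. Why the runs were present was not tested by this count. Of the 28 peaks between Hoxb5 and Hoxb1, 20 were left. The number of Hox genes open in replicate 2 went from 29 to 26, with 5 in place of 8 in the Hoxc cluster, and stayed at 8 in Hoxb and 6 in Hoxd. The share of all genes open in replicate 2 at this setting is not given, so these counts have no background.

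Genes of the proteins that act with or on Hox genes are set against the same background of 61.3% of all genes. Among CpG-rich genes the share was 94%, and the CpG content of these lists was not compared. At main start sites alone 8 of 10 TALE, 12 of 15 Polycomb and 8 of 8 insulator genes were open in both, against 52% of all genes. All 10 TALE cofactor genes had a start-site peak in both libraries. Pbx3 (3.37 and 8.39) and Pknox1 (2.94 and 6.86) were the strongest by mean, though in replicate 2 Pbx2 (7.08) came before Pknox1. Their median signal was 2.01 and 4.55. All 15 Polycomb genes were open, led by Cbx8 (3.73 and 8.68) and Jarid2 (3.41 and 8.31), with Ezh2 (3.45) before Jarid2 in replicate 1, and all 8 insulator genes, led by Stag1 (5.72 and 12.2) and Smc3 (4.24 and 11.6). Among the trithorax genes, which oppose Polycomb, 8 of 9 were open and Kdm6b was not. Wdr5 (4.99 and 13.2) and Kmt2a (5.25 and 11.1) led by mean, with Kmt2a first in replicate 1 and Kdm6a (12.2) before Kmt2a in replicate 2. Upstream regulators were open at 6 of 10: Rarg (2.26 and 4.17) and Rara (2.04 and 3.77), receptors of retinoic acid, were the strongest, Gdf11 was open in replicate 2 alone, and Cdx2, Cdx4 and Cyp26a1 had no peak. The ParaHox and Cdx genes, relatives of the Hox genes outside the clusters, were open at 2 of 6, Gsx1 (1.31 and 3.56) and Cdx1 (0.614 and 0.792), with Gsx2 open in replicate 2 alone and Pdx1 closed in both.

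The clusters held 47 genes that are not protein-coding, of which 11 were open in both libraries and 20 in replicate 2. Among the 19 long non-coding genes 6 were open in both, against 23.8% of 9241 such genes, and 12 in replicate 2, against 30.4%. Among the 19 genes annotated as misc_RNA 3 were open in both, against 8.54%, and 4 in replicate 2, against 12.8%. Among the 7 microRNA genes 1 was open in both, against 10.7%, and 3 in replicate 2, against 16.6%. Hoxd3os1 had the peak between Hoxd4 and Hoxd8 (2.73 and 6.33), and Gm15050 the peak between Hoxa2 and Hoxa3. The microRNA gene Mir196a-1, between Hoxb9 and Hoxb13, was open in replicate 2 alone (3.33), as was Mir196a-2 in the Hoxc run (0.282), and Mir10b in neither. Hotair and Hottip, RNA genes of the posterior ends of Hoxc and Hoxa, had no start-site peak in either library.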

How the data were processed

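The labels give DNase-seq of 2 libraries of 1 group on assembly mm10. The authors deposited for each library 2 peak lists, footprints and a list of cut-rate significance. The signal of each peak is the authors' deposited value, called per library, while the sources used here do not state its scaling, the read depth or the tools, so no counting error could be computed. The deposited significance list holds adjusted p-values under 0.05, and every deposited footprint carries the same p-value limit of 0.01 with no score of its own. Calls used the longer peak list of a library. The shorter one, called the stricter list here, held fewer peaks (27737 in replicate 1 and 50373 in replicate 2) but was not a higher cut on signal.

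Positions are 1-based on GRCm38, with start sites from GENCODE M21, which fixed each gene's annotated starts. Reads of both parental genomes were placed on this reference. A peak counted at a start site by an overlap of at least 1 bp with the 1 kb on either side, and a shared peak is a replicate 2 peak overlapped by a replicate 1 peak. A cluster runs 5 kb beyond the main start sites of its end genes. Strings were searched on both strands, overlaps included. Values are counts and medians beside the same over all genes, matches or peaks; no test between groups was made, and n is 2 libraries. Named genes were, for each cluster, the 3 strongest by the mean signal of both libraries, those beside a gap in openness or its end, and those open in 1 library alone; for other lists, the 2 strongest and those without a peak. The members and lists were chosen with earlier results of these data known. Overlap functions were tested on simulated data. Python 3.11.15, numpy 2.4.6, pandas 2.3.3 and matplotlib 3.10.9 were used. The values of 1 gene of the list are not reported here, though counts over the list include it.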

Additional observations from a re-analysis of the deposited data

How the results depend on the processing

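Other settings gave 230 values, of which 163 stayed close: counts within 1.5 times, the same gene number where openness ended, or a median that shifted by less than the libraries' spread. No paired analysis was possible because there is 1 group. Replicate 2 alone moved 23 values, as ranges below, and the stricter peak list 19. Under the latter, open in both were 11 Hox genes, 4 in Hoxa and 1 in Hoxb; the highest open gene became Hoxa7 (7), Hoxb5 (5) and Hoxc10 (10), and the first run ended at number 5 in Hoxb. Shared peaks fell to 6, 1, 3 and 2 in Hoxa, Hoxb, Hoxc and Hoxd, and those between start sites to 1, 0 and 1 in the first 3. The median replicate 2 signal rose to 3.54, CTCF matches in Hoxa fell to 1, and open genes to 3 upstream regulators, 1 ParaHox or Cdx gene and 4 non-coding genes. Main start sites alone gave 1 open gene in Hoxd, a highest number of 7 in Hoxa, and a replicate 2 median of 1.75. A 500 bp window also gave 1.75, a run to 5 in Hoxc and 4 peaks between start sites in Hoxc, where 2.5 kb gave 1. Equal peak numbers gave a highest number of 10 in Hoxc. An overlap of 50% of both peaks, a setting added later for where openness ends, gave a highest number of 6 in Hoxb and 10 in Hoxc, and left 3 shared peaks in Hoxd and 2 between start sites in Hoxa. The narrower CTCF consensus left 0 matches in Hoxa and 0 in Hoxd. Footprints inside stricter peaks averaged 23.5 in Hoxa, 33.0 in Hoxb and 15.0 in Hoxd over the libraries. Among settings added after seeing the data, dropping peaks with a CTCF match gave a highest number of 7 in Hoxa. The first run in Hoxa, not among the 230 values, ended at 5 in the main setting. It ended at 2 at main start sites alone, at 50% overlap, and without peaks under 0.5. Under the stricter list Hoxa2 was not open in both libraries.

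Leaving out either library in turn gave these ranges: open genes 17 to 29 in all, 3 to 8 in Hoxb, 4 to 8 in Hoxc and 3 to 6 in Hoxd; highest numbers 9 to 13 in Hoxb and 8 to 10 in Hoxd; ends of the first run 6 to 7 in Hoxb, 6 to 11 in Hoxc and 8 to 10 in Hoxd. Peaks were 20 to 24 in Hoxa, 10 to 55 in Hoxb, 10 to 81 in Hoxc and 4 to 24 in Hoxd, and between start sites 7 to 10, 7 to 36, 4 to 53 and 1 to 11. Footprints ranged from 15.0 to 92.0 in Hoxb, 9.0 to 61.0 in Hoxc and 9 to 40 in Hoxd. CTCF matches under a peak ranged from 0 to 1 in Hoxb, 0 to 3 in Hoxc and 1 to 2 in Hoxd, and open non-coding genes from 11 to 20. At equal peak numbers replicate 2 had 26 open Hox genes against 17 in replicate 1. The share of all genes at that setting is not given, so the difference cannot be called particular to Hox genes. The causes of these shifts were not tested.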
